A study of Mus musculus with 18 samples.

Results

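Testis RNA of 3 samples from mice given AOS at 10 mg/kg, without the diet or the toxin used elsewhere in the series, was compared with that of 3 samples from control mice. The comparison covered the 13874 genes, of 20979 in the table, that reached 1 RPKM in at least 3 of the 18 libraries of the series. RPKM is a gene's read count divided by the length of its transcript and by the size of the library. All mice were of the ICR stock, an outbred laboratory line, and were 10 weeks old, and whole testes were used. The 6 libraries of the comparison were chosen by the treatment label alone, and the controls are labelled only as control. The labels give AOS only as an abbreviation, which in published work on this model stands for alginate oligosaccharide, a short sugar chain cut from a seaweed polymer. How the dose was given, and for how long, is not stated in the labels. The series as a whole concerns gut microbiota transfer and a diabetic model made with fatty food and STZ, which is streptozotocin, a drug that kills the insulin-producing cells of the pancreas. Of its other groups, HFD_STZ (diet and STZ) and HFD_STZ_AOS (diet and STZ with AOS at 10 mg/kg) serve below as a separate pair of 3 libraries each in which AOS was also the only difference.

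The testis makes sperm inside tubules and testosterone between them. Spermatogonia divide at the tubule wall, enter meiosis as spermatocytes, and leave it as round spermatids, which elongate while transition proteins and then protamines replace histones and pack the DNA. Sertoli cells nurse the germ cells. Leydig cells, which lie between the tubules, import or synthesise cholesterol and turn it into testosterone with enzymes of the mitochondrion and endoplasmic reticulum. When a cell has enough sterol, Insig proteins hold the transcription factor SREBP2 in the endoplasmic reticulum and the genes of cholesterol synthesis are read less, so these genes are often read more or less together.

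No gene passed the threshold of an adjusted p of 0.05 in limma, where the smallest adjusted p was 0.161, so every difference below is a measured difference that did not pass correction over all genes. At an unadjusted p under 0.05, 1923 genes (13.9%) stood apart, 758 of them (5.46%) higher with AOS and 1165 (8.4%) lower. That split depended on scaling: it was 1007 higher and 766 lower with median-ratio scaling, and 463 higher and 1840 lower with TPM scaling, which divides each library by its summed RPKM. Genes lower at that p numbered 643 without AOS replicate 1 and 736 without control replicate 2. Among the genes described here, the lower ones include genes of cholesterol synthesis, fatty acid desaturation, the early steps of testosterone synthesis and 3 near-identical kallikrein genes. The higher ones include transition proteins and protamines, subunits of the respiratory chain and some ribosomal proteins. Values are from single libraries numbered as in the labels, and nothing in the labels says how the 3 libraries of a group relate to separate animals, so p-values measure the spread between these libraries, which may be technical.

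Promoter windows of 300 bases (250 before and 50 after the annotated start) are shown for genes of the groups that stood apart, since members of each group stood apart in the same direction. They are from RefSeq on build GRCm38.p6, written 5′ to 3′ on the gene's own strand. For cholesterol synthesis, Hmgcs1 and Msmo1 are shown, with capitals marking CCAAT on either strand (the box bound by NF-Y, which works beside SREBP2) and, in Hmgcs1, the sterol element TCACNCCAC on either strand. For sperm chromatin, Prm1 and Tnp1 are shown, with capitals marking the cAMP-type element TGACNTCA on either strand, the kind bound by CREM in spermatids. For the kallikreins the capitals mark the longest run, 89 bases, shared by all 3 windows; the run was found by comparing these 3, so its presence in them is no finding.
Hmgcs1, chr13:119690101-119690400 (+ strand): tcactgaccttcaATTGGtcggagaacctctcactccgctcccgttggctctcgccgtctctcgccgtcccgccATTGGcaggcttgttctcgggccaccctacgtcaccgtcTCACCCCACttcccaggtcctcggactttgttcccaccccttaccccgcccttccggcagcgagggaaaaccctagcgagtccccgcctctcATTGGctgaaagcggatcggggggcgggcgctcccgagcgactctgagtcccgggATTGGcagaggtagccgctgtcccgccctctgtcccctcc
Msmo1, chr8:64733529-64733828 (- strand): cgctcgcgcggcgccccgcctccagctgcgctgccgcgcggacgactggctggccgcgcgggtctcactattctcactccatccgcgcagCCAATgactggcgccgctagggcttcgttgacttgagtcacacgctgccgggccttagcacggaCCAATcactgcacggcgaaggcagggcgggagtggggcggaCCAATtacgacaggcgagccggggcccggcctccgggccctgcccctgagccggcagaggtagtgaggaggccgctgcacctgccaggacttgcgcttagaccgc
Prm1, chr16:10796774-10797073 (- strand): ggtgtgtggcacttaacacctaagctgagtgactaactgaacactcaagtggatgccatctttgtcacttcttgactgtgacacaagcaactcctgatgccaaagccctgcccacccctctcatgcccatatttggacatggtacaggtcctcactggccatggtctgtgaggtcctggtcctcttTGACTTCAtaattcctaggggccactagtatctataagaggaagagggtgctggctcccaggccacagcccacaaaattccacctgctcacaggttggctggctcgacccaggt
Tnp1, chr1:73015850-73016149 (- strand): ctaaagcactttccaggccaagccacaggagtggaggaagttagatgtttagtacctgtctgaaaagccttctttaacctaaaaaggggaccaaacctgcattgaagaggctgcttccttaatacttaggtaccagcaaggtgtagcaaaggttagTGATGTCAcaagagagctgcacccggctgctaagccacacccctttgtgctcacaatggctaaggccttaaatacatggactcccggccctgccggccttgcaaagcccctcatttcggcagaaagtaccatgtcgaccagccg
Klk1b21, chr7:44102042-44102341 (+ strand): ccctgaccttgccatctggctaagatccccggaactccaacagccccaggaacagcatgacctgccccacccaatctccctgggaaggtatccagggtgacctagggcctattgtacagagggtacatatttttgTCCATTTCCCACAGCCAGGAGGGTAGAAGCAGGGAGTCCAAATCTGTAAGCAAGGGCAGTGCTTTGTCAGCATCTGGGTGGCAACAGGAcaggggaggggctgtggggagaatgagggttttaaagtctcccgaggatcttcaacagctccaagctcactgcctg
Klk1b24, chr7:44187986-44188285 (+ strand): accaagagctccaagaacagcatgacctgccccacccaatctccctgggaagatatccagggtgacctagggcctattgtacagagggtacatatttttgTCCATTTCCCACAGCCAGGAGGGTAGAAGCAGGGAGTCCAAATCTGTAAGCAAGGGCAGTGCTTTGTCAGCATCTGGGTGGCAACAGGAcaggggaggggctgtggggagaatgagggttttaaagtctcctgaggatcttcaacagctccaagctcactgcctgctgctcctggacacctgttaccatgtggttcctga
Klk1b27, chr7:44052040-44052339 (+ strand): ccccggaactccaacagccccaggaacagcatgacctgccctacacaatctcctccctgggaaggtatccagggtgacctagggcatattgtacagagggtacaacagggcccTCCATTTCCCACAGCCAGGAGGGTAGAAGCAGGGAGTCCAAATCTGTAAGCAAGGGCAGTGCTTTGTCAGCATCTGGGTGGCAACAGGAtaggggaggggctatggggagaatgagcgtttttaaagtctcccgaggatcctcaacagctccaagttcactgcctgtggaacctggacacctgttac
CCAAT stood in 16 of the 18 cholesterol synthesis genes with a window, and in 41.1% of the 27025 genes with a window. Of the 8 with a window that were lower at an unadjusted p under 0.05, 7 held CCAAT. It occurred 4 times in the Hmgcs1 window and 3 times in that of Msmo1. The sterol element stood in 1 of those 18 genes and in 1.44% of all genes. TGACNTCA stood in 11 of 24 genes of the sperm chromatin and elongating spermatid list, against 10.0% of all genes. It stood in 6 of the 13 that were higher at that p, and also in the 1 lower gene, Akap4. A link between these matches and the AOS differences was not tested. In the Hmgcs1 window the CCAAT and sterol element matches do not overlap. The 89-base run occurred in none of the 11 other genes of the Klk1 family with a window, nor in any other of the 27025 genes. Such matches describe the letters only.

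The 6 libraries were of like size in what the table shows. RPKM values summed to 604416 to 622086 per AOS library and 588081 to 602525 per control library, and 13022 to 13221 genes reached 1 RPKM. The 10 most abundant genes took 12.01 to 12.20% of the AOS sums and 10.39 to 11.35% of the control sums. Total reads are not in the table, so the depth behind a value is known only roughly. Control replicate 3 stood apart: it held Crisp1, a protein of the epididymis (the duct beside the testis), at 159 RPKM against 0.05 to 2.71 RPKM in the other 5 libraries, and Cd52 and Ces5a, also epididymal, at 133 and 17.8 RPKM. Its correlations with the other 5 libraries were 0.988 to 0.990, against 0.992 to 0.994 among those 5. Of 20 epididymal genes listed, 9 were tested. The summed level of all 20 was 1410.5, 1349.6 and 1273 RPKM with AOS and 1277, 1167 and 1459 RPKM in control. Most of the 1459 RPKM came from members other than Crisp1, Cd52 and Ces5a, so these sums do not track those genes.

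Transcript length moved with the comparison. Among the shortest length class, 1 of 10 equal classes of transcripts (165 to 1178 bases) the median log2 difference was 0.07, with 16.7% of genes higher and 2.73% lower at an unadjusted p under 0.05. Among the longest class (from 6519 bases) it was -0.08, with 1.18% higher and 17.3% lower. Across 13556 genes, which are not independent replicates, Spearman's rho between difference and length was -0.288. Differences below are therefore in part also given after each library's own trend on length was removed. Over all genes, 877 (6.47%) were then higher and 631 (4.65%) lower at an unadjusted p under 0.05. The part of RNA quality in these length trends was not tested.

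**Figure D1:**
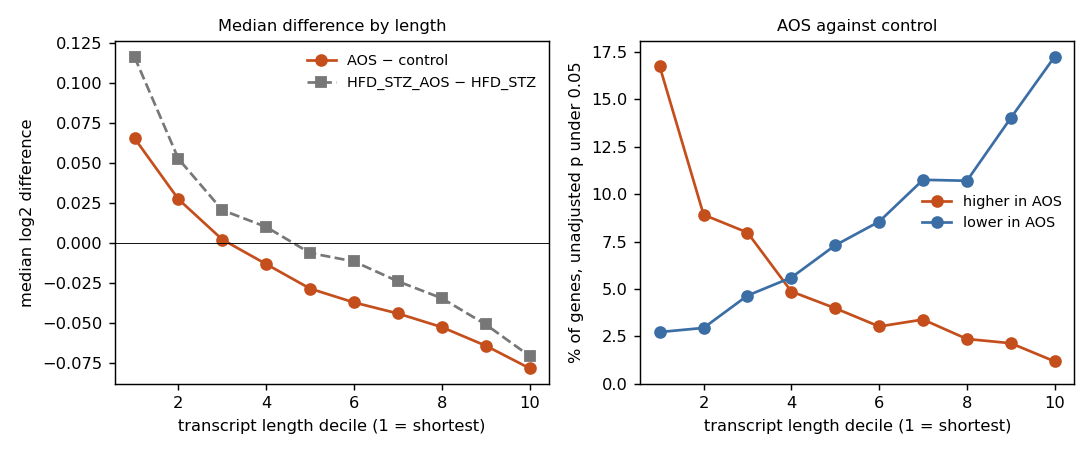
Left, median log2 difference of genes in each of 10 transcript length classes, for AOS against control (filled circles) and for HFD_STZ_AOS against HFD_STZ (squares). Right, percent of genes in each class higher (orange) or lower (blue) with AOS than in control at an unadjusted p under 0.05; the shortest class holds 16.7% higher and the longest 17.3% lower.

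Genes of cholesterol synthesis stood lower with AOS as a block. All 23 listed genes were tested; 20 had a difference below 0, against 59.8% of all genes, and 9 of 23 were lower and 0 higher at an unadjusted p under 0.05, against 8.4% and 5.46% of all genes. The median difference of the list was -0.17 on the log2 scale, beside -0.03 over all genes tested. With the length trend removed the median was -0.12 and 9 genes were lower at that p, and without control replicate 3 10 were. With each of the 6 libraries left out in turn, 8 to 10 were lower.

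The mevalonate part of the pathway held 3 of the lower genes. Hmgcs1, the enzyme that makes HMG-CoA, stood at 24.9, 26.7 and 27.0 RPKM with AOS and 32.2, 32.1 and 36.1 RPKM in control, with no overlap. Its log2 difference was -0.34 ± 0.09 (SE; adjusted p = 0.185), or 21.6% lower. Acat2, which joins acetyl-CoA units ahead of it, stood at 5.68, 7.47 and 6.22 RPKM against 8.70, 8.12 and 9.96 RPKM (-0.42, adjusted p = 0.25), again without overlap. Mvd, the last enzyme of the mevalonate branch, was at 2.14, 2.09 and 2.03 RPKM with AOS and 3.09, 2.49 and 3.53 RPKM in control (-0.38, adjusted p = 0.181). The enzymes that join the carbon chain into squalene did not stand apart, and Sqle, which oxidises squalene ahead of ring closure, differed by -0.10 (adjusted p = 0.387).

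The other lower genes act after squalene, on the sterol ring. Lss closes the ring, and stood at 2.92, 3.05 and 2.97 RPKM with AOS and 3.91, 3.71 and 4.56 RPKM in control (-0.34, adjusted p = 0.237). Msmo1, which acts in the removal of methyl groups from the ring, had the lowest difference of the list. It stood at 14.1, 15.3 and 12.8 RPKM with AOS against 22.5, 20.6 and 24.7 RPKM in control. The difference was -0.64 ± 0.17 (SE, limma adjusted p = 0.171), or 37.7% lower. Nsdhl, the next demethylating enzyme, was at 13.6, 13.2 and 11.5 against 15.8, 14.0 and 15.3 RPKM (-0.22, adjusted p = 0.243). In each of the 3 the highest AOS library lay below the lowest control.

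Late steps gave the same picture. Sc5d, which places the ring double bond, stood at 5.02, 7.05 and 6.52 RPKM with AOS and 8.64, 8.32 and 10.2 RPKM in control; its difference of -0.49 ± 0.12 (SE) had the smallest unadjusted p of the list, 0.000873 (limma adjusted p = 0.161). Dhcr7, a reductase of the last steps, stood at 8.30, 7.87 and 7.58 RPKM against 11.7, 9.81 and 11.5 RPKM (-0.42, adjusted p = 0.244). In 12 of the 23 genes every AOS library lay below every control, against 14.8% of all genes, and in 1 every AOS library lay above. The 9 genes were among the 12, which their choice by p makes likely. The remaining 14 genes lay between -0.24 (Tm7sf2, a sterol reductase) and 0.17 (Idi1, an isomerase before squalene), each with an unadjusted p above 0.05. In the plot of values by gene, the AOS points of Hmgcs1, Msmo1, Sc5d and Dhcr7 sit below every control point.

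**Figure D2:**
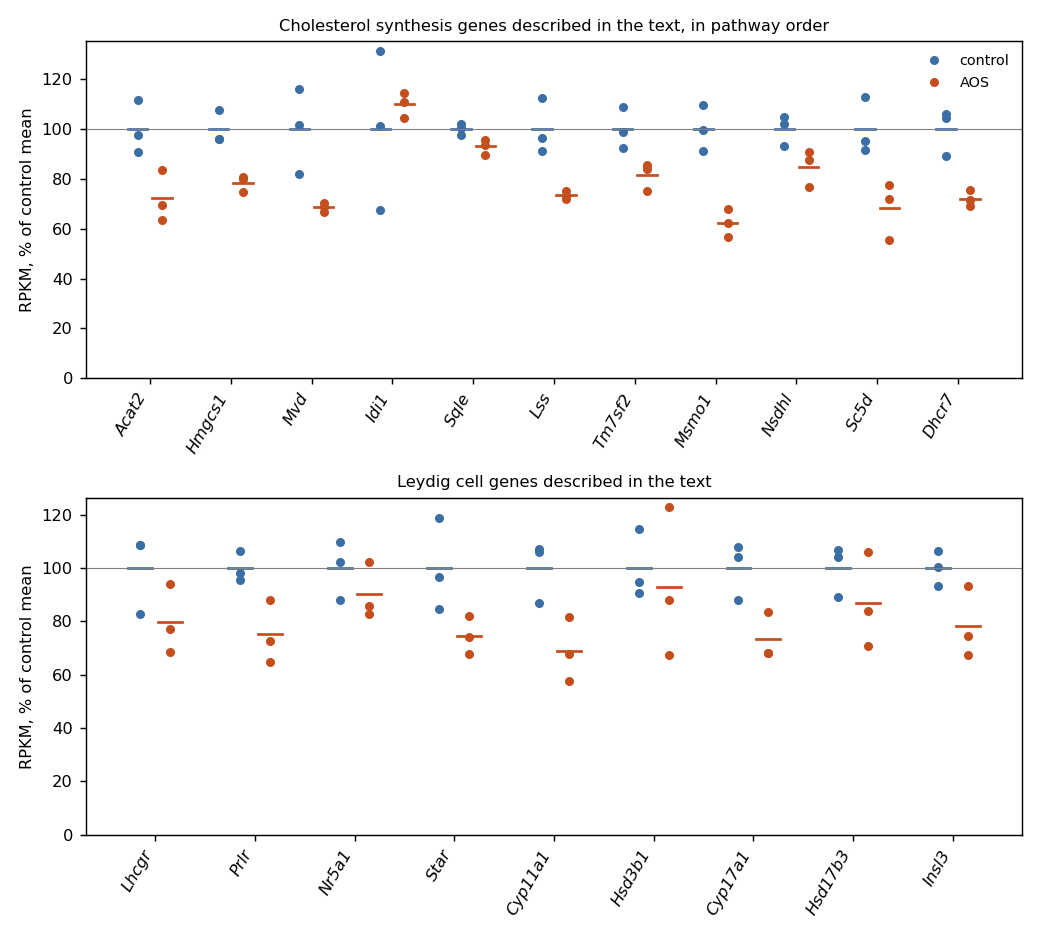
RPKM of each library as a percent of the control mean, for genes of cholesterol synthesis, part of the list, in pathway order (top) and Leydig cell genes described in the text (bottom); points are libraries (blue control, orange AOS) and bars are group means of 3. Msmo1 averages 37.7% below control and Cyp11a1 31.0% below.

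Regulators of sterol level were measured beside the enzymes. Insig1, which retains SREBP2 and is itself a target of it, stood at 4.78, 5.68 and 4.93 RPKM with AOS and 7.65, 6.22 and 8.31 RPKM in control, -0.45 ± 0.13 (SE; adjusted p = 0.186). Soat1, which stores cholesterol as esters, was at 7.67, 7.73 and 8.4 against 8.91, 9.98 and 9.64 RPKM (-0.23, adjusted p = 0.295), and Scap, the escort of SREBP2, at 5.11, 5.38 and 5.02 against 5.88, 5.75 and 6.28 RPKM (-0.18, adjusted p = 0.359). Of 18 tested genes of regulation, uptake and efflux, 3 were lower and 0 higher at an unadjusted p under 0.05. Over all genes the shares were 8.4% and 5.46%. The median of the list was -0.07, and 1 gene was lower without AOS replicate 1, control replicate 2 or control replicate 3. Groups did not overlap for Insig1, Soat1 or Scap.

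A further set, put together after the values had been seen and so without a bearing of its own on direction, holds genes that desaturate, lengthen or build fatty acids, several of them known SREBP targets. All 12 were below 0, against 59.8% of all genes, with a median of -0.24 beside -0.03 over all genes. With the length trend removed the median of the set was -0.20. At an unadjusted p under 0.05, 7 were lower, against 8.4% of all genes. Fads1 and Fads2, the desaturases for polyunsaturated fatty acids, are abundant in testis. Fads1 stood at 25.2, 27.9 and 25.8 RPKM with AOS and 35.2, 30.6 and 47.9 RPKM in control (-0.49, adjusted p = 0.233), and Fads2 at 71.2, 77.0 and 70.2 and 102, 83.4 and 109 RPKM (-0.42, adjusted p = 0.253). The highest values of both were in control replicate 3; without it Fads1 differed by -0.31 (adjusted p = 0.437) and Fads2 by -0.34 (adjusted p = 0.438), and 3 of the 12 genes were lower at an unadjusted p under 0.05. With AOS replicate 1 left out, 4 were. Elovl5, an elongase of such fatty acids, was at 23.6, 26.1 and 24.1 against 29.2, 31.3 and 30.9 RPKM (-0.30, adjusted p = 0.236). Me1, which supplies NADPH for lipid synthesis, was at 141, 160.1 and 149 against 175, 170.3 and 176 RPKM (-0.21, adjusted p = 0.171). Neither Elovl5 nor Me1 overlapped between the groups.

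The steroid-making Leydig cells gave 4 lower genes: Cyp11a1, Cyp17a1, Prlr and Insl3. Of 22 listed genes 21 were tested, 18 of them below 0, against 59.8% of all genes; 4 were lower and 0 higher at an unadjusted p under 0.05, against 8.4% and 5.46% of all genes, with a median of -0.14 (-0.14 with the length trend removed). The count of lower genes was 2 without AOS replicate 1 and 7 without AOS replicate 2. The summed level of the list was 3199.6, 3994 and 2939.8 RPKM with AOS and 4500.3, 3940.4 and 4289.9 RPKM in control, most of it from Insl3. AOS replicate 2 lay above the lowest control in this sum and the other AOS libraries lay below every control. Genes of red blood cells were lower too, with all 5 tested of 10 listed below 0. The sum over all listed ones with a value was 101, 147 and 89.4 RPKM with AOS and 165, 176 and 142 RPKM in control. The part of red blood cells in the Leydig values was not tested. In bulk tissue fewer Leydig cells and less RNA per Leydig cell cannot be told apart.

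Lhcgr, the receptor for luteinising hormone, stood at 5.21, 7.17 and 5.87 RPKM with AOS and 8.26, 6.30 and 8.27 RPKM in control, overlapping (-0.28, adjusted p = 0.535). Prlr, the prolactin receptor, stood at 3.24, 4.41 and 3.64 RPKM against 4.78, 4.91 and 5.32 RPKM, without overlap (-0.34, adjusted p = 0.27). Star carries cholesterol into the mitochondrion, and was at 30.1, 33.0 and 36.5 RPKM with AOS and 37.6, 43.1 and 52.8 RPKM in control (-0.40 ± 0.21, SE; adjusted p = 0.401). Its groups did not overlap, but the nearest libraries, 36.5 and 37.6 RPKM, differed little.

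Cyp11a1, which cuts the cholesterol side chain in the first committed step, stood at 76.5, 109 and 90.0 RPKM with AOS and 141, 115 and 142 RPKM in control. The difference was -0.54 ± 0.16 (SE; adjusted p = 0.21), or 31.0% lower. Cyp17a1, the enzyme that makes androgen precursors, stood at 237, 290.3 and 237 RPKM against 375, 307 and 362 RPKM (-0.45 ± 0.12, SE; adjusted p = 0.185). For both enzymes every AOS library lay below every control, and AOS replicate 2 was the nearest to control. Without control replicate 3 the differences were -0.49 and -0.42.

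The remaining enzymes overlapped between groups. Hsd3b1, which works between the 2 cytochromes in the pathway, was at 62.7, 87.6 and 48.1 RPKM with AOS and 81.6, 64.5 and 67.5 RPKM in control (-0.14, adjusted p = 0.799). Hsd17b3, which completes testosterone, was at 35.2, 44.4 and 29.7 against 43.6, 44.8 and 37.4 RPKM (-0.21, adjusted p = 0.629). Insl3, a peptide hormone and the most abundant Leydig transcript here, stood at 2347, 2930.1 and 2119 RPKM with AOS and 3345, 2929 and 3159.6 RPKM in control (-0.36 ± 0.16, SE; adjusted p = 0.341). Its AOS replicate 2 lay just above the lowest control, and without control replicate 3 its unadjusted p was 0.0767. Nr5a1, the transcription factor that defines steroid-making cells, differed by -0.14 (adjusted p = 0.477).

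Sertoli cell genes and those of the tubule wall held few genes at an unadjusted p under 0.05. Of 28 tested Sertoli genes, 1 was higher (Rhox8, a homeobox gene, 14.4, 12.5 and 14.7 against 12.3, 11.4 and 11.9 RPKM) and 1 was lower (Kitl, the ligand for the Kit receptor of spermatogonia, 2.23, 3.03 and 1.84 against 2.48, 3.39 and 4.19 RPKM), with a median of 0.05. Amh, Sox9, Rhox5 and Cldn11, of Sertoli hormone, identity and tight junctions, differed by 0.09 (Rhox5) to 0.13 (Amh). Their unadjusted p in limma ran from 0.276 to 0.414. Clu was planned beside them and is not reported here. Over the whole Sertoli list 15 genes were above 0 and 13 below, from -0.37 to 0.20. Of 20 genes of the blood-testis barrier, the seal that Sertoli cells form, 4 were lower and 0 higher. Over all genes 8.4% were lower and 5.46% higher. Left out in turn, each of the 6 libraries gave 1 to 2 lower, the 1 without control replicate 1; median-ratio scaling gave 2 lower and 2 higher. With the length trend removed 1 was lower and 1 higher. The lower one was Itgb1, an adhesion receptor, at 11.7, 12.5 and 11.6 RPKM with AOS and 14.1, 14.3 and 13.9 RPKM in control (-0.23, adjusted p = 0.256). For peritubular and matrix genes 21 of 24 were below 0, against 59.8% of all genes (median -0.13) and none had an unadjusted p under 0.05.

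Genes that pack sperm DNA stood higher with AOS. Of 29 tested genes of sperm chromatin and spermatid elongation, 13 were higher and 1 lower at an unadjusted p under 0.05, against 5.46% and 8.4% of all genes. In 16 of 29 (all genes, 7.76%) every AOS library lay above every control. Left out in turn, the 6 libraries gave 10 to 13 higher genes, and TPM scaling gave 11 higher and 4 lower. The median of the list was 0.07 beside -0.03 over all genes, or 0.03 beside -0.07 with TPM scaling. These transcripts are short, with a median length of 1280.0 bases against 3102 over all genes tested, and short transcripts as a class stood higher. With the length trend removed 11 were higher and 0 lower, with a median of 0.09.

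Tnp1 and Tnp2 are the transition proteins that displace histones first. Tnp1 stood at 7599, 8268 and 7394 RPKM with AOS and 6830.5, 6377 and 6085 RPKM in control, and Tnp2 at 15709.9, 15850.2 and 15085 RPKM and 13289, 12218 and 11610.0 RPKM. The differences were 0.27 ± 0.08 and 0.33 ± 0.08 (SE), with adjusted p of 0.203 and 0.161, or 20.6% and 25.7% higher. Every AOS library exceeded every control for both. The protamines, which take their place in the mature nucleus, were among the most abundant transcripts of all. Prm1 stood at 14946, 15864 and 14417 RPKM with AOS and 13687, 13051 and 11649.9 RPKM in control (0.24, adjusted p = 0.271), and Prm2 at 14893, 12890.2 and 14633 RPKM and 12848, 10130.3 and 11349 RPKM (0.31, adjusted p = 0.226). Prm3, a neighbour that encodes an acidic protein outside the nucleus, stood at 878, 674 and 770.0 RPKM against 652, 544 and 562 RPKM (0.40, adjusted p = 0.174). Groups overlapped for none of the 5. With the length trend removed their differences were 0.22, 0.29, 0.19, 0.27 and 0.35 in the same order. Prm1, Prm2, Prm3 and Tnp2 lie side by side on the minus strand of mouse chromosome 16 (build GRCm38, Tnp2 at chr16:10787936-10788660 and Prm1 at chr16:10796326-10805839), and the table does not show how reads from their overlap were counted.

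Other late spermatid genes were higher by less. Meig1, needed to build the sperm tail sleeve, stood at 2557, 2418 and 2481 RPKM with AOS and 2288, 2124 and 2088 RPKM in control (0.20, adjusted p = 0.25). The spermatid kinases Tssk2, Tssk3 and Tssk6 differed by 0.14, 0.15 and 0.12, with adjusted p of 0.235, 0.181 and 0.256. Cst13, a cystatin of the testis, had AOS values within 2 RPKM of each other: 150.4, 149 and 149 RPKM against 123, 114 and 130.4 RPKM (0.29, adjusted p = 0.181). The single lower gene was Akap4, the scaffold of the tail's fibrous sheath, at 822, 910.2 and 871 against 906, 936 and 915 RPKM, which overlapped (-0.08, adjusted p = 0.319). Not every abundant gene of the list stood higher by this test: Odf1, Smcp and Oaz3, of the tail fibres, the mitochondrial capsule and polyamine control, differed by 0.07, 0.07 and 0.05, with unadjusted p of 0.12, 0.334 and 0.337.

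**Figure D3:**
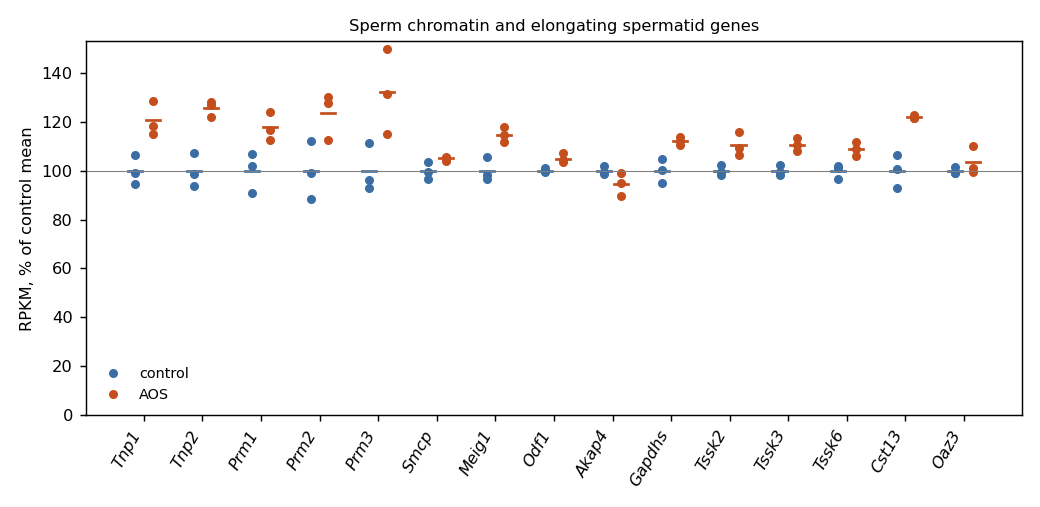
RPKM of each library as a percent of the control mean for the sperm chromatin and elongating spermatid genes described in the text; points are libraries (blue control, orange AOS) and bars are group means of 3. Tnp2 averages 25.7% above control with no overlap.

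Earlier germ cells gave counts nearer to those of all genes. Among round spermatid and acrosome genes, 4 of 30 were higher and 1 lower, against 5.46% and 8.4% of all genes. The higher count was 1 without control replicate 2 and 2 with any other of the 6 libraries left out, and TPM scaling gave 0 higher and 4 lower. Among spermatogonial genes 0 of 18 were higher and 2 lower, the latter Dazl and Ddx4, RNA-binding proteins of the germ line. Stra8, which starts meiosis, overlapped between groups (0.21, adjusted p = 0.529). Ddx4 stood at 206, 217 and 213 RPKM with AOS and 227, 237 and 224 RPKM in control (-0.11, adjusted p = 0.21).

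Meiotic genes, like all genes, were lower more often than higher. Of 34 tested, 7 were lower and 1 higher, against 8.4% and 5.46% of all genes, with a median of -0.09; the counts were the same with the length trend removed, and the median -0.06. Without AOS replicate 1, and without control replicate 2, 4 were lower and none higher. Sycp1 forms the central filaments of the synaptonemal complex, which zips paired chromosomes. It stood at 57.0, 55.0 and 58.8 RPKM with AOS and 65.7, 74.5 and 66.3 RPKM in control (-0.27 ± 0.07, SE; adjusted p = 0.171). Sycp2, of its lateral axis, stood at 73.1, 74.7 and 74.9 RPKM against 84.4, 89.9 and 85.0 RPKM (-0.22 ± 0.05, SE; adjusted p = 0.161). Neither overlapped between groups. Sycp3, the partner of Sycp2, did overlap, at 166, 197 and 169.7 against 190.0, 195 and 184 RPKM (-0.10, adjusted p = 0.546). Syce3, a short transcript for another central element, was the single higher member, at 177, 145 and 139 against 122, 116 and 126 RPKM (0.33, adjusted p = 0.271).

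Genes for the piRNA pathway, which silences transposons, split by member. Gtsf1, a small cofactor of Piwi proteins, stood at 423, 416 and 425 RPKM with AOS and 365, 350.2 and 379 RPKM in control, higher in every AOS library (0.21 ± 0.05, SE; adjusted p = 0.161). Pld6, an enzyme on the mitochondrial surface where piRNA precursors are cut, was also higher (17.4, 15.7 and 15.7 against 14.0, 14.3 and 14.3 RPKM). Tudor scaffold genes were lower: Tdrd6 stood at 97.9, 99.95 and 99.5 against 109, 118 and 110.4 RPKM (-0.18, adjusted p = 0.237) and Tdrd7 at 80.2, 82.8 and 79.0 against 86.0, 93.2 and 85.2 RPKM (-0.13, adjusted p = 0.27). In all 2 of 19 were higher and 6 lower, against 5.46% and 8.4% of all genes, and 2 and 2 with the length trend removed. The lower count was 2 without control replicate 2 and 3 without AOS replicate 3. Axoneme genes have long transcripts, which encode the dynein arms and scaffold of the sperm tail. Of 27, 9 were lower and 0 higher, against 8.4% and 5.46% of all genes. Their lower count was 3 with the length trend removed and 5 without AOS replicate 2, control replicate 1 or control replicate 2.

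Nuclear genes of the respiratory chain were higher more often than lower. Of 41 tested, 15 were higher and 1 lower at an unadjusted p under 0.05, against 5.46% and 8.4% of all genes, with a median of 0.12. With the length trend removed the counts were 13 and 0 and the median 0.10. Each library left out in turn gave 11 to 13 higher genes. The summed level of the list was 5392, 5477 and 5363 RPKM with AOS and 5084, 4854 and 4937 RPKM in control, without overlap.

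The higher genes spanned several complexes. In complex I, Ndufb7 stood at 104, 105 and 109 RPKM with AOS and 88.7, 79.5 and 87.4 RPKM in control (0.32, adjusted p = 0.171), higher in every AOS library. In complex III, Uqcrq stood at 62.8, 51.5 and 53.2 RPKM against 35.0, 42.9 and 36.1 RPKM (0.54, adjusted p = 0.194) and Uqcr11 at 77.7, 56.0 and 75.1 RPKM against 55.0, 40.8 and 55.0 RPKM (0.46, adjusted p = 0.171). These 2 had the largest differences of the list. In complex IV, Cox4i1 stood at 288, 275 and 282 RPKM against 253, 248 and 240.0 RPKM (0.19, adjusted p = 0.194). In ATP synthase, Atp5mpl, a very small subunit, stood at 199.8, 188 and 201 RPKM against 166, 142 and 166 RPKM (0.31, adjusted p = 0.161). Atp5a1, the catalytic-head subunit and a longer transcript, was the single lower member, at 100.01, 105 and 100.5 against 109, 104 and 115 RPKM, which overlapped (-0.10, adjusted p = 0.336).

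Cytosolic ribosomal protein genes had 9 of 36 higher and 0 lower (all genes, 5.46% and 8.4%), or 9 higher and 3 lower with TPM scaling, with a median of 0.07 (0.06 with the length trend removed, 9 higher and 1 lower). Rps29, of the small ribosomal subunit, had the largest difference: 353, 183 and 319.7 RPKM with AOS against 178, 141 and 159.9 RPKM, 0.78 ± 0.19 (SE; adjusted p = 0.161). AOS replicate 2 was far below the other AOS libraries for Rps29 yet above every control. Rpl13 was tighter, at 454, 444 and 445 RPKM against 398, 386 and 394 RPKM (0.19, adjusted p = 0.181). Of the germ cell isoforms of respiration and glycolysis, 4 of 20 were higher and 1 lower, and 2 and 1 with TPM scaling. Gapdhs, the sperm form of a glycolytic enzyme, stood at 1231, 1214 and 1197 RPKM against 1134, 1027 and 1083 RPKM (0.17, adjusted p = 0.216).

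**Figure D4:**
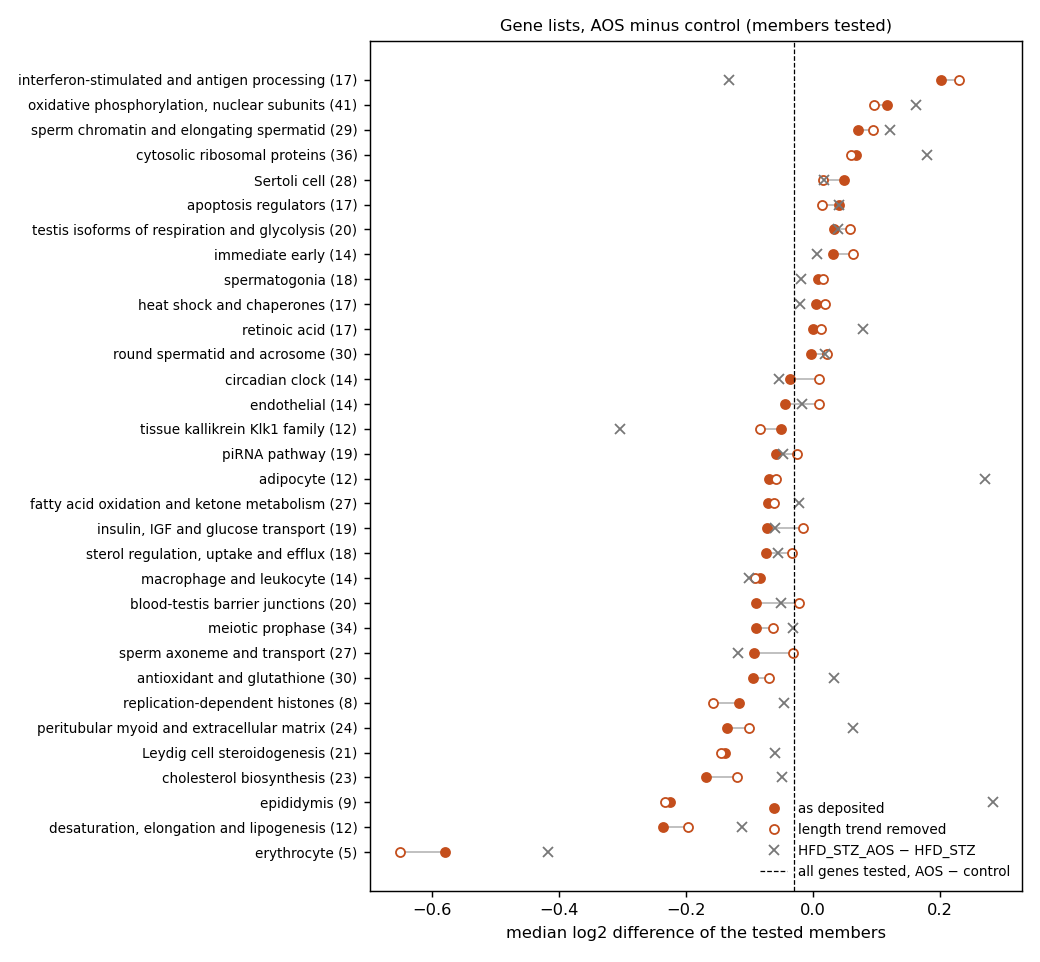
Median log2 difference of the tested members of each gene list, for AOS against control as deposited (filled circles) and with the length trend removed (open circles), and for HFD_STZ_AOS against HFD_STZ (crosses); the dashed line is the median of all genes, -0.03. Cholesterol synthesis stands at -0.17 and oxidative phosphorylation at 0.12.

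Antioxidant genes went both ways. Of 30, 2 were higher and 5 lower at an unadjusted p under 0.05, against 5.46% and 8.4% of all genes. The lower count was 2 without AOS replicate 1 and 3 without control replicate 3. The higher count was 1 without AOS replicate 2, control replicate 2 or control replicate 3. Gpx4, the selenoenzyme that also forms part of the sperm capsule, stood at 1357, 1419.7 and 1412 RPKM with AOS and 1275, 1199.6 and 1275 RPKM in control (0.16, adjusted p = 0.254). Txn1, thioredoxin, stood at 11.5, 13.0 and 10.1 RPKM against 16.7, 14.0 and 15.6 RPKM (-0.39 ± 0.10, SE; adjusted p = 0.161), and Cat, catalase, at 3.39, 4.99 and 4.68 RPKM against 5.67, 5.88 and 5.25 RPKM (-0.31, adjusted p = 0.266). Groups did not overlap for these 3 genes. Gsta4 and Gstp1, glutathione transferases, were lower at the same unadjusted threshold (adjusted p = 0.256 and 0.278).

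Interferon and antigen-processing genes stood higher at low levels. Of 24 listed, 17 were tested, 14 of them above 0 against 40.2% of all genes, with a median of 0.20. At an unadjusted p under 0.05, 4 were higher and 0 lower, against 5.46% and 8.4% of all genes. The count of higher genes was 1 without control replicate 2 and 3 to 6 with any other of the 6 libraries left out. Isg15, a ubiquitin-like protein induced by interferon, stood at 0.74, 0.96 and 2.52 RPKM with AOS and 0.22, 0.44 and 0.33 RPKM in control. AOS replicate 3 carried most of that difference (0.79 ± 0.23, SE; adjusted p = 0.202). Psmb8, a subunit of the immunoproteasome, stood at 1.55, 2.58 and 2.06 RPKM against 1.49, 0.59 and 1.19 RPKM (0.56, adjusted p = 0.286). Tap1, the peptide transporter for MHC class I, stood at 3.79, 7.52 and 3.72 RPKM against 2.87, 0.73 and 3.89 RPKM, with overlap (0.85, adjusted p = 0.332). Summed over all listed genes with a value, tested or not, the groups overlapped, at 158, 191 and 199.6 RPKM with AOS and 171, 137 and 196 RPKM in control. Macrophage and leukocyte genes had none of 14 tested at an unadjusted p under 0.05. Sums over that whole list, tested or not, were 85.6, 125 and 89.2 RPKM with AOS and 101, 96.5 and 98.2 RPKM in control.

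The 3 kallikreins Klk1b21, Klk1b24 and Klk1b27 were singled out after their values were seen. They are secreted serine proteases of the Klk1 cluster on mouse chromosome 7 (build GRCm38: chr7:44102328-44106583, chr7:44188236-44192455 and chr7:44052290-44056712, all on the plus strand), a family known from salivary gland and testis. Klk1b21 stood at 4.92, 9.28 and 6.21 RPKM with AOS and 26.5, 21.6 and 15.9 RPKM in control. Klk1b24 stood at 6.03, 9.20 and 7.27 RPKM against 29.6, 23.4 and 13.7 RPKM, and Klk1b27 at 3.91, 6.59 and 4.64 RPKM against 22.4, 16.8 and 10.7 RPKM. For each of the 3, every AOS library lay below every control. Means were 3.14-fold, 2.97-fold and 3.29-fold higher in control. The log2 differences were -1.53 ± 0.52, -1.40 ± 0.47 and -1.51 ± 0.45 (SE), with unadjusted p of 0.01, 0.00932 and 0.00448. Because family members are near copies of each other, the table's split of reads among them is uncertain, and the 3 values are not independent.

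Control libraries held the highest levels of the 3 kallikreins in the whole series. For Klk1b21 the HFD_STZ libraries stood at 2.48, 5.12 and 10.8 RPKM, the HFD_STZ_AOS libraries at 1.85, 0.68 and 1.10 RPKM, and the recipients of microbiota from AOS and control donors at 6.49, 3.88 and 2.91 and at 10.3, 1.82 and 1.01 RPKM. The lowest control, 15.9 RPKM, exceeded all of these. At an unadjusted p under 0.05, 8.4% of all genes were lower and 5.46% higher. Of 12 tested members of the family, a set put together after the values were seen, 5 were lower and 3 higher at that p. None was higher without AOS replicate 2 or without control replicate 3, and 1 was without AOS replicate 1, with TPM scaling or with the length trend removed. The lower count was 3 without AOS replicate 1 or without control replicate 1. Klk1b8, the most abundant, stood at 90.0, 102 and 97.9 RPKM with AOS and 85.8, 81.7 and 75.1 RPKM in control (0.25, adjusted p = 0.274).

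**Figure D5:**
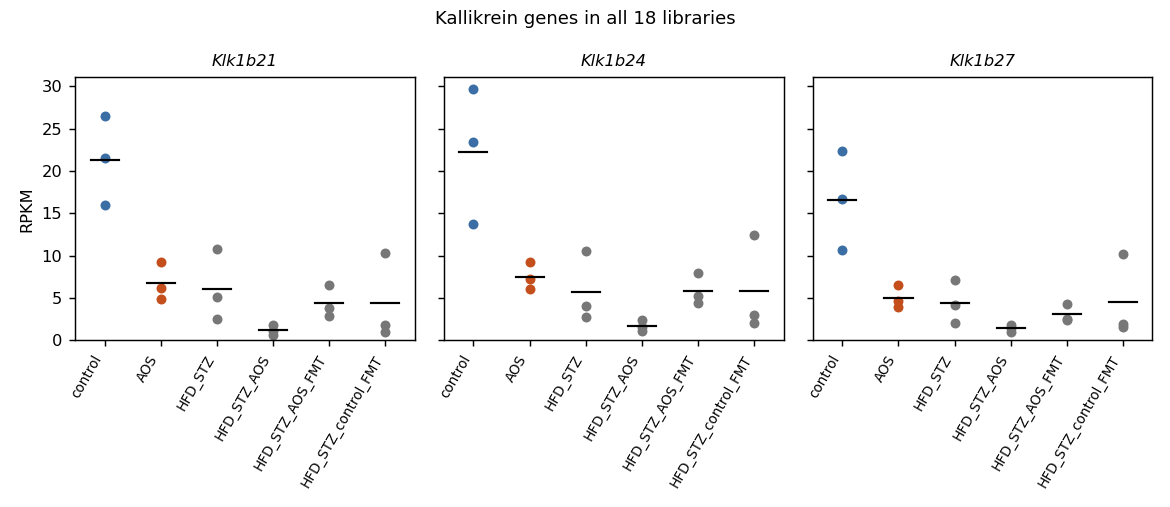
RPKM of Klk1b21, Klk1b24 and Klk1b27 in all 18 libraries by group; points are libraries (blue control, orange AOS, grey other groups) and bars are means of 3. Control libraries reach 29.6 RPKM for Klk1b24, and the AOS libraries lie between 6.03 and 9.20 RPKM.

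By a rule of smallest unadjusted p among genes whose groups did not overlap, 12 higher and 12 lower genes were named. The higher ones were Cystm1, Ssbp4, LOC666331, Tmem205, Fam71e1, Mrps12, Tmem191c, LOC100862455, LOC100044627, Frat2, Gtsf1 and Ankrd60. Cystm1, a small membrane protein gene, stood at 71.6, 65.2 and 73.7 RPKM with AOS and 54.1, 45.5 and 50.4 RPKM in control (0.48 ± 0.09, SE; adjusted p = 0.161), 40.3% higher. Mrps12, a mitochondrial ribosomal protein, stood at 23.8, 23.3 and 21.4 against 19.1, 17.1 and 17.1 RPKM (0.34, adjusted p = 0.161). Frat2, an inhibitor of the kinase GSK3, stood at 28.8, 23.6 and 29.3 against 21.0, 20.4 and 22.8 RPKM (0.33, adjusted p = 0.161). The 2 loci LOC100862455 and LOC100044627 held the same values in every library and count as 1 measurement, 62.2, 43.4 and 49.5 RPKM with AOS and 33.3, 22.3 and 34.8 RPKM in control. LOC666331 had the largest difference of the 12, at 10.6, 11.1 and 10.6 against 6.08, 3.87 and 4.68 RPKM (1.01, adjusted p = 0.161).

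The lower ones were Wasl, Fastkd2, Adi1, Wwp1, Srek1, Mdm1, Tax1bp1, Kat2b, Dnah14, Fam208b, Lrif1 and Gpbp1. Wasl, which triggers branching of actin filaments, had the smallest unadjusted p of all genes named here, 4.53e-05 (limma adjusted p = 0.161), at 6.02, 6.09 and 5.80 RPKM with AOS and 7.56, 7.79 and 7.55 RPKM in control. Its difference, -0.31 ± 0.06 (SE), is modest in size and rests on libraries within 0.3 RPKM of each other in each group. Adi1, an enzyme of methionine salvage, had the largest difference of the 12, at 3.24, 3.10 and 3.05 against 5.58, 4.49 and 6.02 RPKM (-0.62, adjusted p = 0.161). Kat2b, a histone acetyltransferase, stood at 6.93, 8.14 and 9.21 against 10.2, 10.5 and 10.8 RPKM (-0.34, adjusted p = 0.161).

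HFD_STZ_AOS against HFD_STZ, which shares no library with AOS against control, gave a further reading of AOS on the diet and STZ. Both comparisons came from the same fit and share its estimate of each gene's spread. A gene with a small estimate reaches a low p more easily in both, which raises the shares at an unadjusted p given below. It also had no gene at an adjusted p under 0.05 in limma, and 1734 at an unadjusted p under 0.05. Of the 758 genes higher with AOS alone, 632 (83.4%) were above 0 there, against 47.7% of all genes, and 248 (32.7%) were higher at an unadjusted p under 0.05, against 6.23% of all. Of the 1165 lower genes, 938 (80.5%) were below 0, against 52.3% of all genes, and 265 (22.7%) were lower at that p, against 6.26%. The comparison on the diet has a length trend of the same sign (rho -0.357). With the trend removed from all libraries the shares on the same side were 76.9% against 49.3% for higher genes and 73.5% against 50.7% for lower ones. The shares that also had an unadjusted p under 0.05 were then 18.2% against 4.77% for higher genes and 15.4% against 5.05% for lower ones. Genes are not independent replicates, so these shares are descriptions.

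The gene groups differed in how far they were shared. Respiratory chain genes had 17 of 41 higher on the diet at an unadjusted p under 0.05 (median 0.16). Ribosomal proteins had 27 of 36 (median 0.18) and sperm chromatin genes 13 of 29 (median 0.12). Over all genes 6.23% were higher and 6.26% lower on the diet, with a median of -0.01. These 3 lists hold short transcripts (median 1001, 1057 and 1280 bases). The shortest length class had a median of 0.12 on the diet, and these counts were not taken with the length trend removed. Tnp2 differed by 0.25 there (adjusted p = 0.249) and Prm1 by 0.23 (adjusted p = 0.304). Cholesterol genes had 1 of 23 lower on the diet, Hmgcs1, with a median of -0.05, a count near the share of all genes. Msmo1 differed by -0.23 (adjusted p = 0.602) and Sc5d by -0.18 (adjusted p = 0.552). Leydig genes had 1 of 21 lower, Lhcgr, also near that share, and a median of -0.06. Interferon and antigen-processing genes, 14 of 17 above 0 with AOS alone, had 12 below 0 on the diet (median -0.13), against 52.3% of all genes. At an unadjusted p under 0.05, 4 of these 17 were lower on the diet and 0 higher. Sycp1 and Sycp2 were again lower, by -0.23 (adjusted p = 0.216) and -0.19 (adjusted p = 0.199). The kallikreins were lower there as well, Klk1b21 by -1.55 (adjusted p = 0.256), Klk1b24 by -1.18 (adjusted p = 0.32) and Klk1b27 by -1.09 (adjusted p = 0.342).

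The test of the difference between the 2 AOS comparisons, an interaction term, passed for no gene at an adjusted p under 0.05 in limma, and 640 genes (4.61%) had an unadjusted p under 0.05. The 24 genes named by the rule were chosen by smallest p in the fit that both comparisons share. They include LOC100862455 and LOC100044627, which held the same values in every library and are counted separately here. With both counted, 23 of the 24 kept their direction on the diet and 16 did so at an unadjusted p under 0.05. Over all genes 47.7% were above 0 and 52.3% below on the diet, with 6.23% higher and 6.26% lower at that p. The named gene that did not keep its direction was Adi1, at 4.25, 4.73 and 3.98 RPKM in HFD_STZ and 4.5, 4.31 and 6.47 RPKM in HFD_STZ_AOS. Its interaction had an unadjusted p of 0.000173 and a limma adjusted p of 0.495. For the cholesterol genes the smaller values on the diet are therefore not shown to differ from those without it: the unadjusted interaction p was 0.0972 for Msmo1, 0.0875 for Sc5d and 0.326 for Hmgcs1.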

How the data were processed

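RNA of 18 mouse testis samples, 3 in each of 6 groups, was sequenced. The labels give each sample's group and its number within the group. Total RNA came from frozen tissue by Trizol extraction and column clean-up, then entered standard Illumina libraries, per the labels' protocols. Bowtie 0.12.2 and build mm10 were used, per the submitters' processing notes. Which counter, annotation and strand setting were used is not stated there. The deposited table holds 1 value per gene symbol and sample, whose scale fits RPKM: smallest nonzero values fell with transcript length (log-log correlation -0.71 over 476 genes). RPKM divides by a library total, so abundant genes move all others.

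Of 20985 rows, 6 rows of 3 repeated symbols were left out. Genes were filtered at 1 RPKM in 3 libraries and transformed as log2(RPKM + 1), which understates changes of low genes. Group means were compared by limma (version 3.58.1, run under R 4.3.3; intensity trend, 6 group means over 18 libraries, 12 residual degrees of freedom, two-sided, Benjamini-Hochberg adjustment over 13874 genes). The fit was tested on simulated data beforehand. Members and gene lists were chosen with earlier results of these data known, and lists are described by counts and medians without a test.

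Named genes are the 12 higher and 12 lower with the smallest p among genes without overlap and with a mean of at least 5 RPKM (symbols of the Gm and Rik kind left out), up to 4 members of each list at an unadjusted p under 0.05, and members of the Leydig, cholesterol and sperm chromatin panels. Alternatives were median-ratio and TPM scaling, a pseudocount of 0.1, no filter, a fit of the 6 libraries only, the replicate block, robust empirical Bayes, removal of each library's length trend (lowess, span 0.3, GENCODE vM21 lengths, 97.7% of genes matched) and the omission of each library. Omission of libraries high in Crisp1, and the fatty acid and kallikrein sets, were added after seeing the data. Promoters are from RefSeq. Some measured genes are not reported here. Tables and plots used Python 3.11.15.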

Additional observations from a re-analysis of the deposited data

Results flagged for a closer look

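Psmb8 stood higher with AOS than in control in every library and lower with AOS in every library on the diet and STZ. Its levels were 1.55, 2.58 and 2.06 RPKM with AOS and 1.49, 0.59 and 1.19 RPKM in control, and 1.06, 0.94 and 1.35 RPKM in HFD_STZ_AOS and 2.14, 2.80 and 3.60 RPKM in HFD_STZ. The difference on the diet and STZ was -0.85 on the log2 scale. The interaction, which tests the difference between both effects, had an unadjusted p of 0.000326 and did not pass adjustment in limma (adjusted p = 0.566). Tap1, from the same antigen-processing list, differed by 0.85 without and by -1.64 with the diet and STZ (interaction adjusted p = 0.566), with overlapping libraries in the former. Crisp1 and Ces5a, epididymal genes, were lower in every AOS library than in control and higher in every library of HFD_STZ_AOS than of HFD_STZ, where they differed by 3.07 and 1.40 (limma interaction adjusted p = 0.999 and 0.999). Both rest on 1 library on each side, control replicate 3 and HFD_STZ_AOS replicate 3, at 159 and 157 RPKM of Crisp1.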

How the results depend on the processing

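The counts at an unadjusted p under 0.05 depended on the scaling of the libraries. They were 758 higher and 1165 lower as deposited, 1007 higher and 766 lower with median-ratio scaling, 463 higher and 1840 lower with TPM scaling, and 877 higher and 631 lower with the length trend removed. Over all genes the median difference was -0.03, and -0.07 with TPM scaling. Leaving out each of the 6 libraries in turn gave 564 to 733 higher and 643 to 1298 lower genes, with the lowest count of lower genes without AOS replicate 1 (643) and 736 without control replicate 2. Genes at an adjusted p under 0.05 in limma numbered 0 to 3 under these omissions, the 3 being Frat2, Atp5k and Rps29, all higher, without AOS replicate 2; 0 were called under the other alternatives. On the diet and STZ, 2 genes passed, as against 0, without the 4 libraries high in Crisp1, an alternative chosen after seeing the data.

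Same-numbered AOS and control libraries showed no pairing, as their deviations had correlations of -0.05 to -0.03. Other groups were not compared in this way, and a batch shared by replicate number was not tested. With the replicate block 0 genes were called, and 789 were higher and 1304 lower at an unadjusted p under 0.05. Of the genes named in the text, 2 crossed 0 with libraries left out in turn: Idi1 ranged from -0.066 (without control replicate 1) to 0.38 (without control replicate 3), and Hsd3b1 from -0.36 (without AOS replicate 2) to 0.065 (without AOS replicate 3). The cause was not tested. All other named genes kept their sign under every alternative run. Depth, known only from the smallest values, limits genes near 1 RPKM with short transcripts, such as Isg15, where few reads stand behind a value.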

Other observations

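Several genes outside the groups above stood apart and are given as values; Lcn2 and Arg2 were chosen after their values were seen. Lcn2, a lipocalin that binds iron carriers, stood at 227, 305 and 215 RPKM with AOS and 431, 476 and 387 RPKM in control, without overlap (-0.80 ± 0.21, SE; adjusted p = 0.171). On the diet and STZ it differed by 0.04 (adjusted p = 0.959). Arg2, the mitochondrial arginase, stood at 5.86, 6.03 and 7.47 RPKM with AOS and 4.93, 2.80 and 2.46 RPKM in control, higher in every AOS library (0.80 ± 0.23, SE; adjusted p = 0.186). On the diet and STZ it was at 10.8, 6.63 and 9.94 RPKM in HFD_STZ and 4.02, 7.4 and 7.54 RPKM in HFD_STZ_AOS (-0.48, adjusted p = 0.396), and the interaction had a limma adjusted p of 0.767.

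Genes that burn fatty acids had 3 of 27 lower and 1 higher at an unadjusted p under 0.05, against 8.4% and 5.46% of all genes. The lower count was 0 without AOS replicate 1 or AOS replicate 3, 1 without control replicate 1 or control replicate 2, 2 without control replicate 3 and 5 without AOS replicate 2. Cpt1a, which admits fatty acids to the mitochondrion, stood at 9.24, 11 and 9.28 RPKM with AOS and 11.5, 11.1 and 11.2 RPKM in control (-0.18, adjusted p = 0.331). Acadm, which starts their breakdown, overlapped between groups (-0.33, adjusted p = 0.286). Heat shock genes had 4 of 17 lower, and 0 with the length trend removed, with median-ratio scaling, without AOS replicate 1 or without control replicate 2, and 1 without AOS replicate 3; Hsp90aa1, an abundant chaperone, stood at 659, 720.0 and 699.9 against 732, 797 and 734 RPKM. In retinoic acid handling 2 of 17 were lower (1 without AOS replicate 1, control replicate 1 or control replicate 3), among them Aldh1a2, the enzyme that makes retinoic acid, at 48.4, 47.4 and 47.4 RPKM with AOS and 53.0, 52.2 and 53.4 RPKM in control (-0.14, adjusted p = 0.257). Of insulin and IGF genes 1 of 19 was lower, the receptor Igf1r, at 1.01, 0.99 and 1.05 against 1.41, 1.34 and 1.38 RPKM (-0.24, adjusted p = 0.27). Of 8 tested replication-dependent histone genes 2 were lower, with Hist1h2bc at 10.4, 14.3 and 8.03 RPKM with AOS and 16.4, 15.1 and 15.3 RPKM in control (-0.51, adjusted p = 0.226). Clock genes had 1 of 14 higher, Dbp, an output factor of the clock, at 4.39, 4.65 and 3.22 against 3.27, 3.24 and 3.03 RPKM, which overlapped. Among immediate early, apoptosis, endothelial and adipocyte genes none had an unadjusted p under 0.05, with medians of 0.03, 0.04, -0.04 and -0.07.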
